A study of Homo sapiens with 3 samples.

Results

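The mRNA levels of 10 inflammatory cytokine and chemokine genes were followed across 3 cultures, parental HepG2, the HepG2/metR line and HepG2/metR cells given oxamate. The genes were chosen by name, with earlier results of these data known. All 10 were found among the 25270 gene symbols listed for each library. They comprise the interleukins IL6, IL1A, IL1B and IL18, the IL-6 family cytokine LIF, the CXC chemokines CXCL1, CXCL2 and CXCL3, and the CC chemokines CCL2 and CCL20. HepG2 is a human hepatocellular carcinoma line. HepG2/metR is a single line obtained from it by keeping the cells that survived more than 5 months of metformin, an inhibitor of respiratory complex I, and the last culture is the same line after 24 h in 40 mM oxamate, which inhibits lactate dehydrogenase. All cultures were grown in the same serum-containing medium, and whether metformin was still present at harvest is not given in the sources used here. The study used the first comparison to find what differs in a lactate-rich line, and the second to find what changes when lactate is lowered. There was 1 library per condition, so no difference below has a replicate check and no p-value is given.

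Levels are given in FPKM, the number of sequenced fragments scaled by transcript length and library size. Differences are between values of log2(FPKM + 1), a scale on which changes of weakly expressed genes appear smaller than they are. A gene is called higher or lower in HepG2/metR past 2-fold, and with oxamate past 1.5-fold, which is 0.58 on the log2 scale. Of the 25270 symbols, 12210 had a mean of at least 1 FPKM over the libraries, and 9 of the 10 cytokine genes were among them. CXCL3, with a mean of 0.578 FPKM, was not. The genes listed at 0 made up 35.0% to 36.2% of each library, and none of 12 ubiquitously used genes was at 0 in any library. The label liver was checked against 9 hepatocyte genes. They ranged from 68.7 to 11976 FPKM in parental cells, but from 0 to 0.747 FPKM in HepG2/metR and from 0 to 0.617 FPKM with oxamate, so the defining hepatocyte markers were absent from both HepG2/metR libraries. In the comparison of HepG2/metR with parental cells, metformin selection, the culture and the library cannot be told apart, and in bulk RNA fewer expressing cells and less RNA per cell cannot be told apart either.

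Cytokines such as IL-1 and IL-6 are secreted proteins that carry inflammatory signals between cells, and in liver they drive hepatocytes to make acute phase proteins. IL-1α and IL-1β signal through the IL-1 receptor to the transcription factor NF-κB, which switches on many further cytokine and chemokine genes, including IL6 and the CXCL1 group. Chemokines are small secreted proteins that attract leukocytes, the CXCL1 group acting on neutrophils, CCL2 on monocytes and CCL20 on cells that carry the receptor CCR6. Many mRNAs of such genes are short-lived, because AU-rich elements behind their coding region recruit decay factors.

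Set against the parental line, HepG2/metR had 8 of the 10 genes higher by 2-fold or more, namely IL6, IL1A, IL1B, IL18, LIF, CXCL1, CXCL2 and CCL2. CCL20 was lower, and CXCL3 passed neither limit. Among the 12210 genes with a mean of at least 1 FPKM, 16.6% were that much higher and 17.6% that much lower. The median log2 difference of the 10 genes was 2.86, beside 0.02 for the 12210 genes. Because the 10 genes were chosen with earlier results of these data known, these counts and medians are a description and no test. The oxamate comparison uses the same HepG2/metR library, so the changes in the pair of comparisons are not independent. With oxamate, IL6, CXCL1 and CXCL2 were at least 1.5-fold lower and none of the 10 was higher, against 3.82% of the 12210 genes lower and 4.30% higher. The median log2 difference with oxamate was -0.27 for the 10 genes and 0.02 for all genes.

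**Figure D1:**
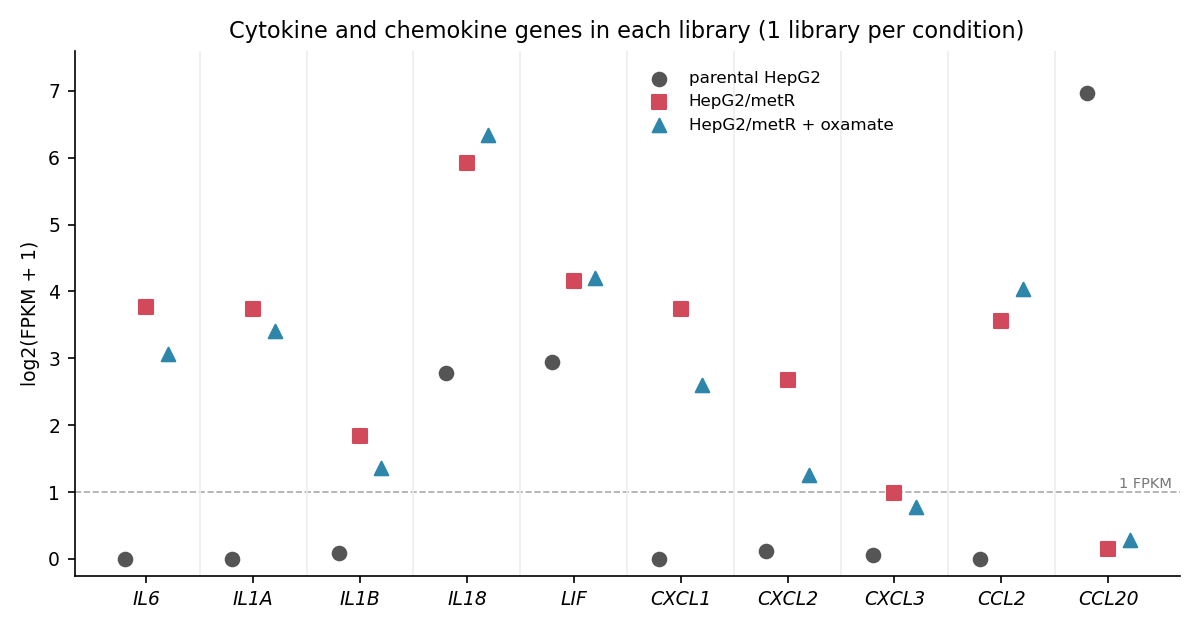
Level of each of the 10 genes on the log2(FPKM + 1) scale in the parental (circles), HepG2/metR (squares) and oxamate (triangles) libraries, 1 each, with a dashed line at 1 FPKM. The circles of IL6, IL1A, CXCL1 and CCL2 lie on 0, and CCL20 is the gene whose parental value is the highest of its values.

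The promoters of these genes were examined because several of them moved together. RefSeq promoter windows of GRCh38.p14, from 250 bases before to 50 after the transcription start, matched 7 of the 10 genes; IL18, LIF and CCL2 had none. The NF-κB consensus, searched on both strands, was found in 5 of the 7, namely IL6, CXCL1, CXCL2, CXCL3 and CCL20, and in 13.3% of the 27305 genes with a window. The 160 bases before the start are shown for these 5 genes, 5′ to 3′ along the gene, with the NF-κB match in capitals.
CXCL1 (chr4:73869233-73869392, plus strand): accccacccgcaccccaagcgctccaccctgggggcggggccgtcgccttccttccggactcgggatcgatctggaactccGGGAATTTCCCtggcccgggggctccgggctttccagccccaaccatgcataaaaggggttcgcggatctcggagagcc
CXCL2 (chr4:74099196-74099355, minus strand): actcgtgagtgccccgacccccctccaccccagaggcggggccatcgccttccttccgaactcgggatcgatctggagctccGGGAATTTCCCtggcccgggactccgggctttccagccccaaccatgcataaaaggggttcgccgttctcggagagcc
CXCL3 (chr4:74038690-74038849, minus strand): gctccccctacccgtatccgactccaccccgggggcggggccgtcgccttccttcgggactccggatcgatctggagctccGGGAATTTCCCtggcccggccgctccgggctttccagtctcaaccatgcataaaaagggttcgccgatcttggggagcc
IL6 (chr7:22727040-22727199, plus strand): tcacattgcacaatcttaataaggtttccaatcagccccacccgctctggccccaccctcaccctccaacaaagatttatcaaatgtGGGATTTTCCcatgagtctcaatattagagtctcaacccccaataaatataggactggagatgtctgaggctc
CCL20 (chr2:227813682-227813841, plus strand): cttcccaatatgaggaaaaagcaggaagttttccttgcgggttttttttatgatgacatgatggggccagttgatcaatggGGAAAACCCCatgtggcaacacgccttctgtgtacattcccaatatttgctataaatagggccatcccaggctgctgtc

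In CXCL1, CXCL2 and CXCL3 the capitals cover overlapping matches on the opposite strands, which together read GGGAATTTCCC. Counted from the transcription start, the first matched base is at position -79 in CXCL1, CXCL3 and CCL20, at -78 in CXCL2 and at -73 in IL6. In CCL20 the match lies on the opposite strand. The upstream stretches of the CXC genes were close copies of each other, with 87.3% identical bases between CXCL1 and CXCL2, 89.1% between CXCL1 and CXCL3 and 84.3% between CXCL2 and CXCL3. Among the genes with a window, the match was in IL6, CXCL1 and CXCL2, which were higher in HepG2/metR, and in CCL20, which was lower. It was also present in CXCL3, which passed neither limit on the log2(FPKM + 1) scale. CXCL3 was listed at 0.0438 FPKM in parental cells and 0.979 in HepG2/metR, a ratio of 22.3 between low values. The match was absent from IL1A and IL1B, which were higher. A letter match is a description and no evidence that a factor binds there.

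The other motifs were rarer in these windows. AP-1, spelled TGANTCA, was found in IL1A only, which has a pair of overlapping windows for its alternative starts, and in 9.37% of all genes. The C/EBP letters TTGCNNAA were found in IL6, IL1B and CXCL2 (12.7% of all genes), the STAT letters TTCNNNGAA in IL1B (9.38%) and TATAAA in IL1A and CCL20 (3819 of the 27305 genes). The cyclic AMP response element TGACGTCA was in none of the 7 genes and in 2.25% of all genes. No listed motif overlapped another in these windows, apart from the NF-κB matches on opposite strands.

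IL6, the cytokine that induces the acute phase response, was listed at 0 FPKM in parental HepG2, at 12.7 in HepG2/metR and at 7.34 in oxamate-treated cells. The log2 difference between HepG2/metR and parental cells was 3.77, the 247th largest rise among the 12210 genes. No fold is given against a library listed at 0. With oxamate IL6 was at 58.0% of its untreated FPKM, a log2 difference of -0.71.

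The IL-1 ligands were both near 0 in parental cells. IL1A, which encodes the IL-1α that is active also as a precursor, was listed at 0, 12.3 and 9.65 FPKM in parental, HepG2/metR and oxamate-treated cells, a log2 difference of 3.74 in HepG2/metR. IL1B, whose product is secreted after cleavage by caspase-1, was listed at 0.0638, 2.56 and 1.58 FPKM, a log2 difference of 1.74, and was below IL1A in both HepG2/metR libraries. With oxamate IL1A was at 78.3% and IL1B at 61.7% of the untreated FPKM, log2 differences of -0.32 and -0.46 that did not reach 1.5-fold. IL1B passed the limit with a smaller pseudocount, at -0.66 with 0.1 and -0.70 with none.

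IL18 and LIF were the cytokine genes besides CCL20 that parental cells already expressed. IL18, a caspase-1 substrate that stimulates interferon-γ production by lymphocytes, was listed at 5.87, 59.9 and 80.0 FPKM, which made it the highest of the 10 genes in both HepG2/metR libraries. As a ratio of FPKM it was 10.2-fold higher in HepG2/metR, a log2 difference of 3.15. LIF, which maintains stem cell states and acts through the IL-6 signal transducer, was listed at 6.70, 16.8 and 17.5 FPKM, a ratio of 2.51 and a log2 difference of 1.21. Neither passed the limit with oxamate. IL18 was at 134% and LIF at 104% of the untreated FPKM, log2 differences of 0.41 and 0.05.

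The CXC chemokines that attract neutrophils were in the same order in both HepG2/metR libraries, CXCL1 above CXCL2 above CXCL3. CXCL1 was listed at 0, 12.3 and 5.10 FPKM in parental, HepG2/metR and oxamate-treated cells. CXCL2 was listed at 0.0831, 5.40 and 1.39 FPKM and CXCL3 at 0.0438, 0.979 and 0.713 FPKM. The log2 differences between HepG2/metR and parental cells were 3.74, 2.56 and 0.92.

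CXCL2 and CXCL1 had the largest falls of the 10 genes with oxamate. CXCL2 was at 25.7% of its untreated FPKM, a log2 difference of -1.42 and the 33rd largest fall among the 12210 genes. CXCL1 was at 41.3%, a log2 difference of -1.13 and the 46th largest fall. CXCL3 was at 72.8%, a log2 difference of -0.21. These transcripts are similar in GENCODE release 29. Of the aligned bases, 90.5% were identical between CXCL1 and CXCL2, 81.3% between CXCL1 and CXCL3 and 82.6% between CXCL2 and CXCL3. Between 5.26% and 9.24% of the 50-base words of each transcript occur in one of the other genes. The split of reads from those words is uncertain, but most words of each transcript are not shared.

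The CC chemokines went opposite ways in HepG2/metR. CCL2, the main attractant of monocytes, was listed at 0, 10.8 and 15.4 FPKM, a log2 difference of 3.56 in HepG2/metR. With oxamate it was at 143% of the untreated FPKM, a log2 difference of 0.48 that stayed under the limit. CCL20 was listed at 124 FPKM in parental cells, at 0.109 in HepG2/metR and at 0.216 with oxamate. It was the highest of the 10 genes in parental cells and the lowest in both HepG2/metR libraries. Its log2 difference of -6.82 in HepG2/metR was the 68th largest fall among the 12210 genes, and its values in the HepG2/metR libraries are too low for a ratio between them to be read.

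The switch from silent to expressed can also be counted without a fold. Of the 10 genes, 7 were at or under 0.1 FPKM in parental HepG2, and 6 of these reached 1 FPKM in HepG2/metR, namely IL6, IL1A, IL1B, CXCL1, CXCL2 and CCL2. Among all 25270 symbols, 705 (2.79%) met both limits, a share to be set beside 6 of the 10 genes and not 6 of the 7. Those limits were chosen after the values had been seen. With oxamate none of the 6 returned to 0.1 FPKM, the lowest being CXCL2 at 1.39 FPKM.

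**Figure D2:**
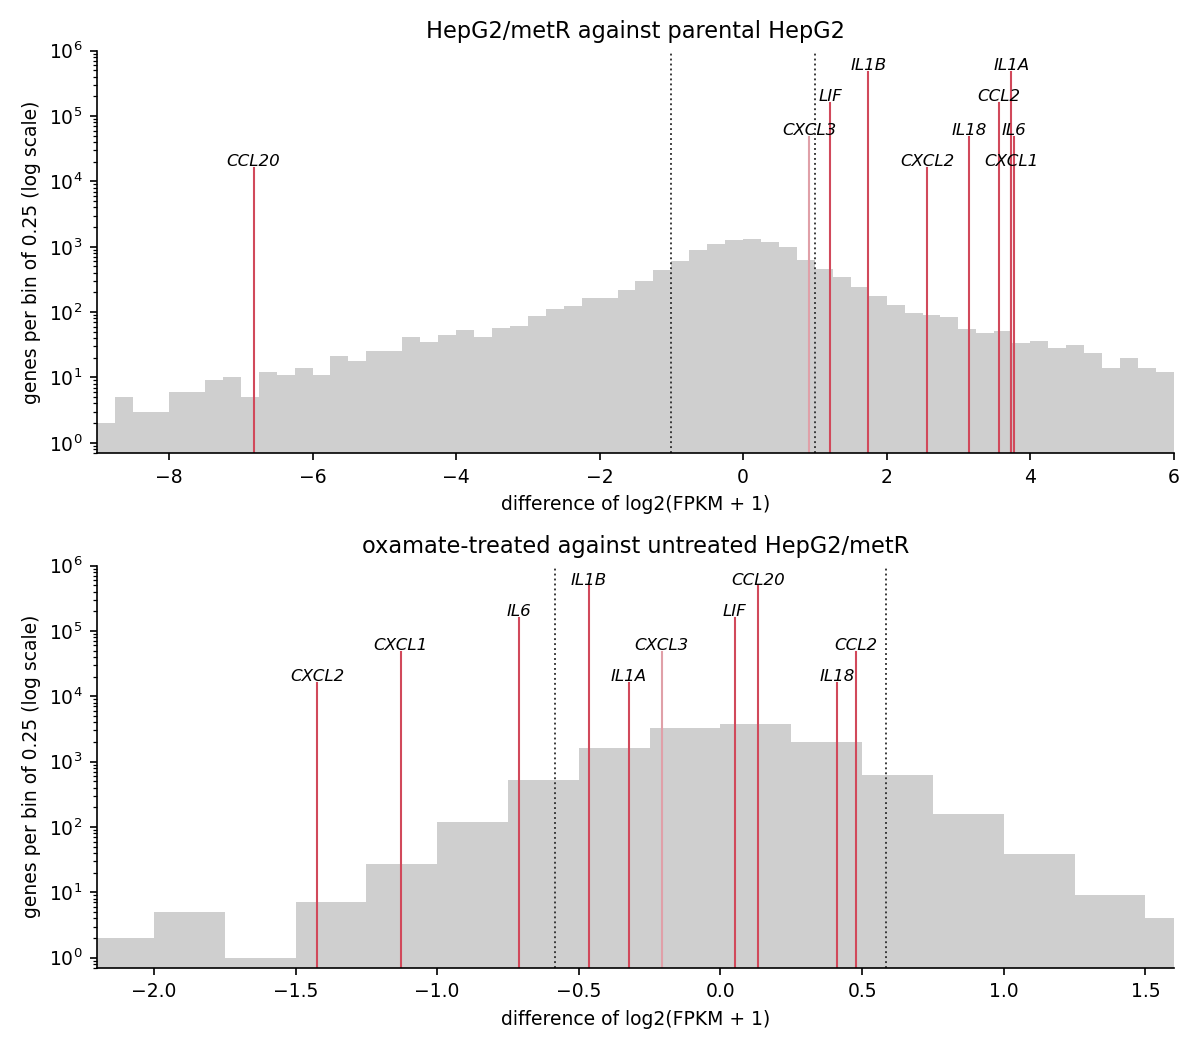
Difference of log2(FPKM + 1) for each of the 10 genes (vertical lines, pale for CXCL3, which is under the level filter) over the histogram of the 12210 genes, with gene numbers on a log axis and dotted lines at 2-fold (upper panel, HepG2/metR against parental) and 1.5-fold (lower panel, oxamate). Line heights only separate the labels, and both axes are cut, so the most extreme genes are not drawn. The upper panel has CCL20 alone on the left at -6.82, and the lower panel has CXCL2, CXCL1 and IL6 beyond the left dotted line.

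In chromosomal order, most other genes in the rows CXCL8 to CXCL2, IL1A to IL1RN and CCL2 to CCL1 stayed under 1 FPKM. Genes beyond the ends of these rows were not examined, so the outer neighbours of CXCL2, IL1A and CCL2 are not covered. The neighbours of IL6, IL18, LIF and CCL20 were not examined either. On chromosome 4 the RefSeq order is CXCL8, CXCL6, PF4V1, CXCL1, PF4, PPBP, CXCL5, CXCL3 and CXCL2. CXCL6, PF4V1, PF4, PPBP and CXCL5 stayed at or under 0.187 FPKM in every library, so CXCL1 and the pair CXCL3 and CXCL2 are separated by genes without signal. CXCL8, which encodes the neutrophil attractant IL-8 and begins the row, was listed at 3.76, 2.995 and 1.76 FPKM in parental, HepG2/metR and oxamate-treated cells, log2 differences of -0.25 and -0.54 that passed neither limit. It was thus present in parental cells in which CXCL1 was listed at 0.

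On chromosome 2, IL1A and IL1B are the first of a row that ends with IL1RN, the gene of the secreted IL-1 receptor antagonist. IL1RN had the opposite pattern, at 17.0 FPKM in parental cells, 0 in HepG2/metR and 0.0217 with oxamate. IL37, IL36G, IL36A, IL36B, IL36RN and IL1F10, which lie between them, stayed at or under 0.248 FPKM. On chromosome 17, CCL2 is followed by CCL7, CCL11, CCL8, CCL13 and CCL1, and none of these exceeded 0.142 FPKM in any library. IL1RN, CXCL8 and the silent neighbours were taken by position within these rows, but the rows were chosen after values had been seen.

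**Figure D3:**
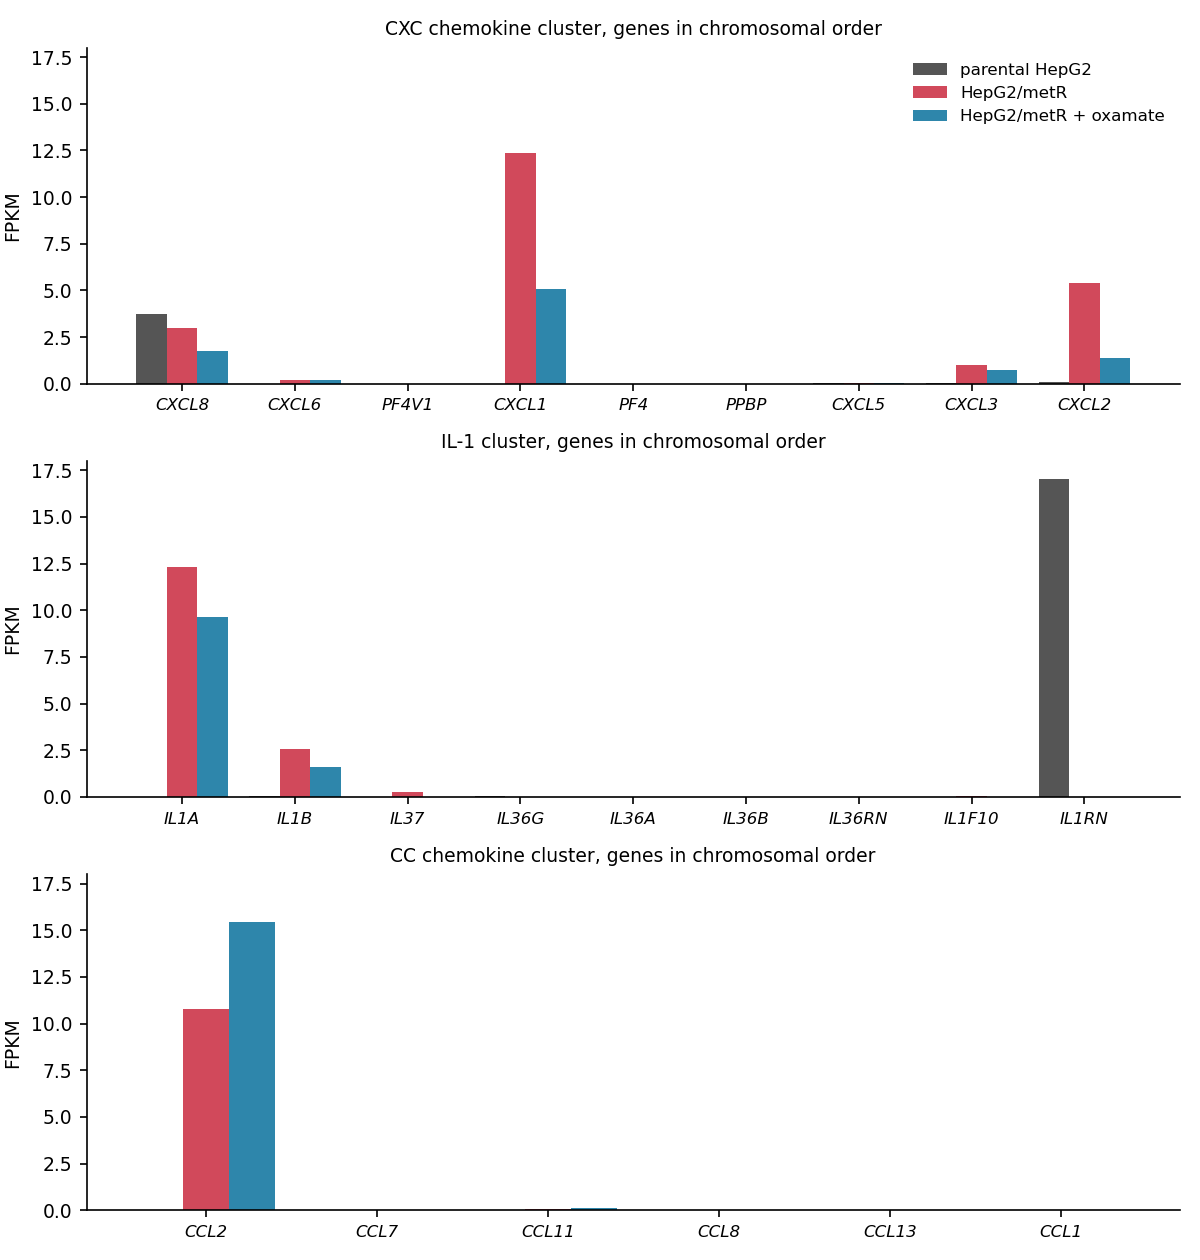
FPKM of the protein-coding genes from CXCL8 to CXCL2, from IL1A to IL1RN and from CCL2 to CCL1, in chromosomal order but not to scale, with grouped bars for the parental, HepG2/metR and oxamate libraries. IL1A at 12.3 FPKM and IL1RN at 17.0 FPKM stand at opposite ends of the middle row, in different libraries.

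The receptors of these ligands were mostly absent or lower in HepG2/metR. IL1R1, the signalling receptor for IL-1α and IL-1β, was listed at 17.8 FPKM in parental cells, 0.0424 in HepG2/metR and 0.0207 with oxamate, and its co-receptor IL1RAP at 12.3, 3.36 and 3.09. IL6R, the binding chain of the IL-6 receptor, was listed at 12.5, 1.74 and 1.99 FPKM, a log2 difference of -2.30 in HepG2/metR. CCR6, the receptor of CCL20, was listed at 5.93, 0.0897 and 0.0548 FPKM, so ligand and receptor were both present in parental cells and both near 0 in HepG2/metR.

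Receptor chains shared across the IL-6 family differed less. IL6ST, which encodes the signal transducer gp130, was listed at 32.9, 33.4 and 41.9 FPKM. LIFR, the LIF receptor, was listed at 2.52, 2.23 and 4.17 FPKM, and its log2 difference of 0.68 with oxamate passed 1.5-fold. CXCR2, the receptor of the CXCL1 group, did not exceed 0.0551 FPKM, CCR2, the receptor of CCL2, did not exceed 0.0156, and the IL-18 receptor chains IL18R1 and IL18RAP did not exceed 0.0954.

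**Figure D4:**
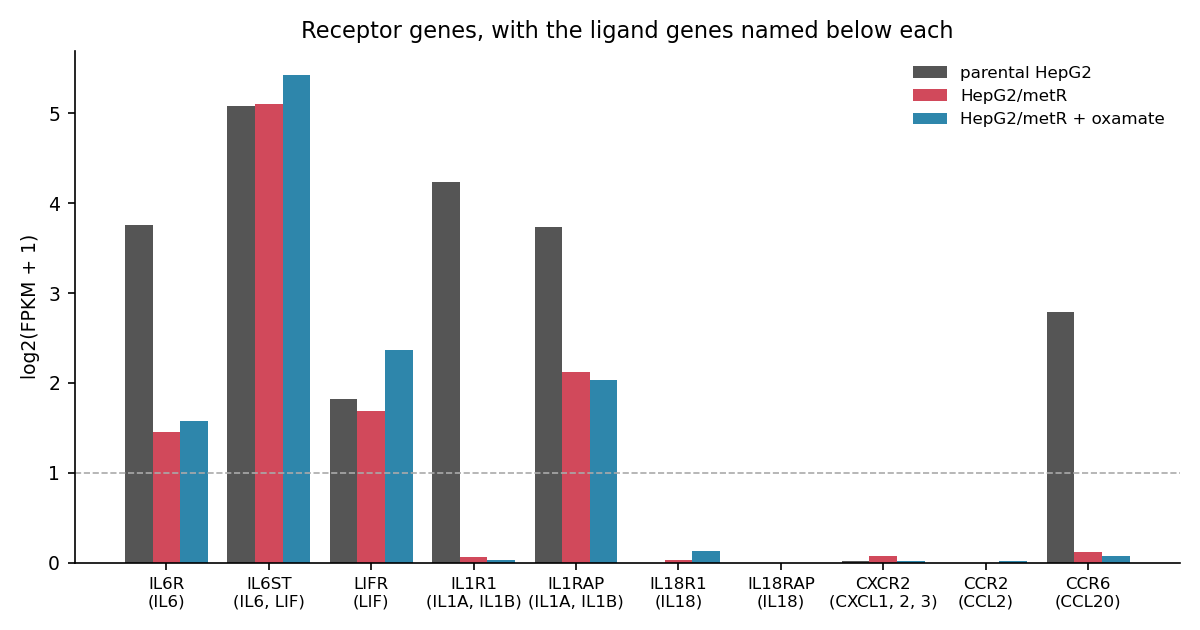
Levels of the receptor genes on the log2(FPKM + 1) scale, with the ligand genes in brackets, in the parental, HepG2/metR and oxamate libraries (1 each) and a dashed line at 1 FPKM. IL6R, IL1R1, IL1RAP and CCR6 have their tallest bar in parental cells, and IL18R1, IL18RAP, CXCR2 and CCR2 stay near 0 in all libraries.

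Within the rest of the IL-6 family and its receptors, 8 of 12 genes had a mean of at least 1 FPKM. CLCF1, a cytokine of that family, was higher in HepG2/metR at 2.70, 8.17 and 5.98 FPKM. IL6R and IL11 were lower, IL11 at 10.2, 1.81 and 2.64 FPKM, although with a pseudocount of 0.1 or none 3 were higher and 2 lower. Of 9 signal transduction genes behind these receptors, 8 were kept, 1 was higher in HepG2/metR and none lower. That gene was SOCS3, the feedback inhibitor induced by STAT3, at 0.388, 17.5 and 12.0 FPKM. STAT3 itself was listed at 32.8, 28.1 and 32.8 FPKM, and PTPN11, the highest of the list, at 39.5, 66.5 and 75.0.

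Of 15 other genes of the IL-1 family, its receptors and antagonists, 5 were kept, and IL1RN, IL1R1 and IL1RAP were lower in HepG2/metR. SIGIRR, an inhibitory receptor, was higher at 0.615, 4.56 and 3.45 FPKM. With a mean of at least 5 FPKM 0 of this list were higher and 3 lower. Of 10 inflammasome genes 6 were kept, with 2 higher and 0 lower in HepG2/metR. These were the sensors NLRP1, at 0.196, 9.88 and 12.5 FPKM, and NLRP3, at 0, 4.80 and 4.07. CASP1, which cleaves the IL-1β and IL-18 precursors, was listed at 0.935, 2.49 and 2.48 FPKM, a log2 difference of 0.85, and CASP4, the highest of the list, at 32.2, 54.3 and 64.6.

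Among 20 genes of IL-1, TNF and Toll-like receptor signalling, 12 were kept, 0 were higher and 2 were lower in HepG2/metR. The adaptor MYD88 was listed at 22.2, 4.67 and 5.30 FPKM and the kinase IRAK2 at 6.53, 1.94 and 1.67. At 1.5-fold 4 were higher and 2 lower. With oxamate the ubiquitin ligase TRAF6 was higher, at 5.72 against 2.98 FPKM. IRAK1, the highest of the list, was listed at 59.2, 110 and 110 FPKM.

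Of 38 other chemokines only 7 were kept, and 30 stayed under 1 FPKM in every library. CCL3, CCL5 and CCL26 were higher in HepG2/metR, with CCL3 at 0, 3.25 and 3.50 FPKM. CX3CL1, CCL15 and CXCL16 were lower, with CX3CL1, a membrane-bound chemokine, at 45.8, 0.0220 and 0 FPKM. Among chemokines with a mean of at least 5 FPKM 0 were higher and 2 lower. None of these 7 passed 1.5-fold with oxamate on the log2(FPKM + 1) scale, which narrows changes of weakly expressed genes. CXCL8 was listed at 2.995 FPKM without and 1.76 with oxamate, a log2 difference of -0.54. Of 23 chemokine receptors 2 were kept, CCR6 and CXCR4, the receptor of CXCL12, which was higher in HepG2/metR at 0.448, 5.75 and 5.84 FPKM. Among receptors with a mean of at least 5 FPKM 0 were higher and 0 lower.

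Of 25 other inflammatory cytokines 6 were kept, with 2 higher and 3 lower in HepG2/metR. With a mean of at least 5 FPKM 0 were higher and 2 lower. TSLP was higher in HepG2/metR, at 0.0186, 2.23 and 2.99 FPKM, as was IL12A at 0.300, 2.70 and 4.66, which also passed 1.5-fold with oxamate by a log2 difference of 0.61. IL32 was lower at 100.2, 5.78 and 3.66 FPKM, and so were CSF1 and MIF, the latter the highest of the list at 653, 273 and 228. TNF, the classical inducer of NF-κB, did not exceed 0.0560 FPKM, and the interferon genes IFNB1 and IFNG were listed at 0 in every library.

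All 9 NF-κB subunits and IκB kinases were kept, with 3 higher and 0 lower in HepG2/metR. MAP3K14, a kinase of the non-canonical branch, was listed at 2.01, 21.8 and 17.2 FPKM. NFKB2, a subunit of that branch, was listed at 9.03, 35.4 and 27.2 FPKM and its partner RELB at 1.33, 4.32 and 4.90. RELA, the main canonical subunit, was listed at 18.3, 24.8 and 26.9 FPKM, a log2 difference of 0.42. Among 9 inhibitors and regulators kept, TNIP1 was higher, at 18.2, 41.7 and 37.8 FPKM, and NFKBIA, BCL3 and TNFAIP3 were lower. NFKBIA, which encodes IκBα, was listed at 51.0, 15.8 and 13.3 FPKM and TNFAIP3, which encodes the feedback inhibitor A20, at 10.0, 0.832 and 1.37. The balance of 1 higher to 3 lower was not stable, because NFKBIE, NFKBIZ and CYLD lay just under 2-fold, at log2 differences of 0.89, 0.94 and 0.98. It became 4 to 3 with a pseudocount of 0.1 or none or at 1.5-fold, 4 to 2 with upper-quartile scaling, 2 to 2 with the same total in each library and 1 to 1 with a mean of at least 5 FPKM. None of these NF-κB genes passed 1.5-fold with oxamate on the log2(FPKM + 1) scale, which narrows changes of weakly expressed genes. REL was listed at 1.14 FPKM without and 2.12 with oxamate, a log2 difference of 0.55. The log2 difference of TNFAIP3 was 0.37.

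NF-κB target genes other than cytokines went both ways. Of 17 genes 11 were kept, with BIRC3, TNFAIP2, CD83, PTX3 and MMP9 higher in HepG2/metR and ICAM1, SOD2, IER3 and CFB lower, and a median log2 difference of 0.99. With a mean of at least 5 FPKM 2 were higher and 4 lower. PTX3, a secreted pattern recognition protein, was listed at 0, 44.9 and 42.5 FPKM, and BIRC3, an inhibitor of apoptosis, at 0.212, 18.7 and 12.7. CFB, a complement factor, was listed at 87.2, 0.0140 and 0.0410 FPKM, and IER3, the highest of the list, at 138, 59.1 and 48.2. None passed 1.5-fold with oxamate.

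Of 12 AP-1, C/EBP and EGR genes 10 were kept, 4 higher and 3 lower in HepG2/metR, or 4 and 5 at 1.5-fold. FOSL1, an AP-1 subunit, was listed at 11.5, 192 and 115 FPKM, and FOSL2, JUN and ATF3 were higher too. CEBPA, a hepatocyte factor, was listed at 74.3, 0.558 and 0.723 FPKM, and CEBPD and JUND were lower as well. With oxamate FOSL1 was lower by a log2 difference of -0.74 and EGR1, an immediate early gene, by -1.89, at 6.28, 5.50 and 0.755 FPKM.

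The listed acute phase protein genes of hepatocytes, not all of which need be induced by IL-6 or IL-1, were largely silent where the cytokines were on. Of 18 genes 15 were kept, 13 of them lower in HepG2/metR, and their median log2 difference was -7.20. FGG, a fibrinogen chain, was listed at 802, 0 and 0.0917 FPKM, and SERPINA1, the highest of the list, at 1709, 11.2 and 7.10, which was the gene of the list that was lower with oxamate, by a log2 difference of -0.59. SAA1 and SAA2, serum amyloid A genes that are near copies of each other, were the exceptions. SAA1 was listed at 0, 121 and 107 FPKM and SAA2 at 0, 5.68 and 5.95. SAA4, another serum amyloid A gene, was among the 13 lower genes, at 225, 1.07e-06 and 0 FPKM. The hepatocyte markers given above, all 9 of them lower in HepG2/metR, moved with these losses, and their part in them was not tested.

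Markers of cells that are common sources of cytokines were mostly near 0. The leukocyte marker PTPRC did not exceed 0.0430 FPKM. Of 11 leukocyte markers, 10 were under 1 FPKM in HepG2/metR and with oxamate and 8 in parental cells. Their summed levels were 41.6, 44.1 and 32.1 FPKM in parental, HepG2/metR and oxamate-treated cells, of which CD68, a lysosomal protein gene, made up 35.7, 43.0 and 31.0. All 6 endothelial markers stayed at or under 0.192 FPKM. Of 7 fibroblast markers, LUM and PDGFRB were the ones at 1 FPKM or more in HepG2/metR, with LUM at 0.172, 3.25 and 6.69 FPKM and PDGFRB at 3.43, 3.66 and 7.26. LUM was higher in HepG2/metR and both were higher with oxamate. The summed level of the 7 was 5.27, 7.84 and 15.3 FPKM, and their part in the cytokine values was not tested.

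Most of the 10 mRNAs hold an AU-rich sequence feature. Such elements are typical of cytokine mRNAs and the words were chosen after values had been seen, so a high share was foreseeable. In the longest protein-coding transcript of each gene in GENCODE release 29, the part behind the stop codon held the AU-rich word TATTTAT in 8 of the 10 genes and in 30.8% of 19068 genes. The pentamer ATTTA occurred at a median of 6.66 per kilobase in the 10 genes and 1.47 in all genes. CXCL2 had 10 copies in 721 bases and IL6 had 6 in 429, whereas CCL2 had 1 and IL18 had 0. Stretches of 30 bases with the most copies are shown for the genes that fell with oxamate and for CCL2, with ATTTA in capitals.
CXCL2: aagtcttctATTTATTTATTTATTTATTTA
CXCL1: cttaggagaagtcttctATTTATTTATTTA
IL6: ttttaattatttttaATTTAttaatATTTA
CCL2: tatgccttaagtaatgttaattcttATTTA

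The 4 stretches were chosen by the oxamate values, so their copy numbers say nothing about those values. Over all 10 genes such a stretch holds 5 copies in CXCL2, 3 in CXCL1, IL1A, IL1B and LIF, 2 in IL6 and CXCL3, 1 in CCL2 and CCL20 and 0 in IL18. The log2 differences with oxamate among the genes with 3 copies ran from -1.13 in CXCL1 to 0.05 in LIF. Of 11 AU-rich decay and stability factors, all were kept, with 0 higher and 3 lower in HepG2/metR. ZFP36L2, which promotes decay, was listed at 35.8, 9.15 and 8.77 FPKM, and ZC3H12A, an RNase that cleaves IL6 mRNA, and TIA1 were also lower. With oxamate RC3H2 was higher, at 10.4 against 6.28 FPKM, and HNRNPD, the highest of the list, was listed at 290, 267 and 184.

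The genes with the most similar pattern were sought for the 3 genes with the highest FPKM in any library, by Euclidean distance between the 3 values on the log2(FPKM + 1) scale after centring. With only 3 libraries many genes lie close, and the distance is a description. Those near CCL20 included CPLX2 and SERPINA6, at distances of 0.080 and 0.097. Those near IL18 included VEGFC and NLRP1, at 0.051 and 0.068, and for LIF they were GAS2L1, PARM1 and VDR, at 0.008 to 0.025. In parental cells VEGFC was listed at 0 FPKM and NLRP1 at 0.196, beside 5.87 for IL18. PARM1 was listed there at 0.101 and VDR at 0.284, beside 6.70 for LIF, whereas GAS2L1 was at 3.02. The scale narrows changes of weakly expressed genes, so a small distance does not mean a similar fold. As a ratio of FPKM, NLRP1 was 50.4-fold higher in HepG2/metR and IL18 10.2-fold.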

How the data were processed

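Total RNA from 3 cultures was sequenced on an Illumina NextSeq instrument, 1 library per condition. The authors deposited 1 log2 value per gene symbol and library. The values have the form log2(FPKM + 1), which was inferred from them. Per the labels, the submitters' processing notes name STAR 2.5.1b, FastQC 0.11.5, Cufflinks 2.2.1 and hg19, and the annotation is not given in the sources used here. How reads shared by gene copies were assigned is not given either. The number of reads is unknown, so no counting interval is given.

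No further scaling was applied to the deposited log2 values. Differences of log2 values carry the pseudocount of 1. Genes with a mean of at least 1 FPKM over the libraries were kept for the counts over all genes, and thresholds of 2-fold and 1.5-fold follow the study's methods. The calculation was tested on simulated data. The members, the gene lists and the motifs were chosen with earlier results of these data known. All 10 members are named, as are, in each list, the largest rise and fall past the threshold and the highest gene. Where 5 or fewer genes of a list passed, they are named as well, and these, the receptors, the neighbouring genes, STAT3, RELA, CASP1, TNF, IFNB1, IFNG and the AU-rich words were chosen after values had been seen.

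For the 3 members with the highest FPKM, the 3 genes with the nearest pattern were sought, and some of these are not reported here.

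Promoters came from RefSeq (GRCh38.p14) and transcripts from GENCODE release 29, a different build from hg19, so they were joined to the values by symbol only. For the AU-rich words the longest protein-coding transcript of a gene was used. The software was matplotlib 3.10.9, Biopython 1.88, pandas 2.3.3, numpy 2.4.6 and Python 3.11. Alternatives tried were other pseudocounts, filters, scalings and fold thresholds.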

Additional observations from a re-analysis of the deposited data

How the results depend on the processing

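No paired analysis was possible because each condition has 1 library, and no library could be left out. No called member changed direction under the 9 alternatives that gave it a value. In HepG2/metR against parental cells, 8 genes were higher and 4 without a pseudocount, because the 4 genes listed at 0 then have no value, and CXCL3 passed the limit with a pseudocount of 0.1 or none, at 2.91 and 4.48, and at 1.5-fold, but is not in these counts because its level is under the filter. With oxamate, the number of higher members was 0 and became 1 with a pseudocount of 0.1 or none (CCL20, at under 0.22 FPKM) and with the same total in each library (CCL2, at 0.64). Under that last scaling the median of all genes was 0.17, IL6 was at -0.56, short of 1.5-fold, and at -0.72 relative to that median. IL6 was also short of a 2-fold limit, while CXCL1 passed under every alternative and CXCL2 under all but the filter at a mean of 5 FPKM, which removes it. IL1B passed as lower with a pseudocount of 0.1 or none, at -0.66 and -0.70. Upper-quartile scaling put the median of all genes in HepG2/metR at 0.15 without changing the call of any of the 10 genes.

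Of the 119 genes kept in the 14 other lists, 26 (21.8%) were higher and 40 (33.6%) lower in HepG2/metR, beside 16.6% and 17.6% of all genes kept. The number higher was 13 with a mean of at least 5 FPKM and 44 at 1.5-fold, and the number lower was 31 to 43 under the alternatives. With oxamate 4 were higher, against 8 with a pseudocount of 0.1, 12 with none, 8 with the same total in each library, 1 with a mean of at least 5 FPKM and 0 at 2-fold. With oxamate 3 were lower, against 6 with a pseudocount of 0.1, 9 with none, 1 with the same total and 1 at 2-fold. Apart from those that use another fold or leave out genes, the cause of these shifts was not tested. The unknown depth limits what can be said of values under 1 FPKM, which include CXCL3 in all libraries and CCL20 in both HepG2/metR libraries.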
